A study of Homo sapiens with 6 samples.

Results

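The expression of 7 genes of the β-catenin-independent branch of Wnt signaling was examined in PANC-1 cells after STYK1 depletion. These were picked by gene symbol as 7 of the 995 genes of the expression table: the ligand gene WNT5A, the receptor genes ROR2, FZD1 and FZD8, the co-receptor gene GPC4, the planar polarity gene PRICKLE2 and the calcium-branch gene PLCB4. PANC-1 is a human pancreatic ductal carcinoma cell line. The control group and the shSTYK1 group, whose cells carry a lentiviral short hairpin RNA against the kinase gene STYK1, each have 3 poly(A)-selected libraries, described in the methods as biological replicates. Stable lines were made with a puromycin-resistance vector and resistant clones were expanded. Which of the STYK1 hairpins the sequenced cells carried, which vector the control cells carried, and how many clones each group stands for are not given in the sources used here. There is 1 knockdown group, so an effect of the hairpin itself and of STYK1 loss cannot be told apart.

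Noncanonical Wnt signaling starts when a secreted ligand such as WNT5A binds a Frizzled receptor, often together with a co-receptor tyrosine kinase of the ROR family and with heparan sulfate chains of glypicans on the cell surface. It does not work through stabilized β-catenin. One of its branches, planar cell polarity, orients cells through Dishevelled, Vangl and Prickle proteins and small GTPases. Another branch acts through G proteins and phospholipase C, which releases calcium from internal stores. In cancer cells WNT5A and ROR2 are best known for their part in migration and invasion.

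The table holds a z-score for every gene in each of the 6 libraries, with a mean of 0 over the libraries. Expression values with 2 decimals were recovered from these scores for 994 genes, all 7 Wnt genes among them. The unit of the recovered values is not stated, so levels of different genes are not set against each other here, and the depth of the libraries is unknown. A reading of 0.02 or 0.03 is only a few steps above 0, and rounding alone can move it by 0.005. The values, and with them the folds and percentages of group means given below, assume that 1 was added to each value before the log and that the smallest solution is the true one, whereas log2 fold changes of value + 1 do not depend on the latter. Control and shSTYK1 cells were compared with limma on log2(value + 1) over the 994 genes, a scale on which changes of low values look small, and the change in the ratio of the group means is given beside it. The authors chose the genes of the table on this same contrast, and 92.1% of them passed an adjusted p of 0.05 in one direction or the other. Thus, p-values describe the size of a change against the replicate spread and are not independent evidence of it. Median-of-ratios size factors and quantile normalization, used below as alternatives, were computed on these selected genes only. Their results may therefore have shrunk or enlarged part of the group difference and are no independent check. STYK1 itself was looked for and has no row among these selected genes. How strongly the hairpin lowered STYK1 RNA in the sequenced cells is therefore unknown here, which limits every comparison of the groups. The paper shows a depletion efficiency for its stable PANC-1 hairpin lines in a supplementary figure, without values in its text. Fewer cells that express a gene and less RNA per cell cannot be told apart in such bulk samples.

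Of the 7 genes, 6 were lower in shSTYK1 cells, namely those of the ligand, the receptors, the co-receptor and the calcium branch, and PRICKLE2 stood apart. The ligand, the co-receptor and the calcium branch are each represented by 1 gene, and the GPC4 call was lost with quantile normalization. ROR2 nearly disappeared, FZD8 was left at 11.5% of its control mean, GPC4 at 25.2%, WNT5A at 30.6%, PLCB4 at 38.0% and FZD1 at 46.9%. With an adjusted p under 0.05 in limma, 6 of the 7 were called lower, 0 were called higher and 1 was not called. Over all 994 genes fitted, 46.3% were called lower and 45.8% higher, and 50.2% had a log2 fold change below 0. The median log2 fold change of the 7 genes was -0.67 and that of all genes fitted was -0.10. The 7 genes were chosen with their direction known, so this count describes them and tests nothing.

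**Figure D1:**
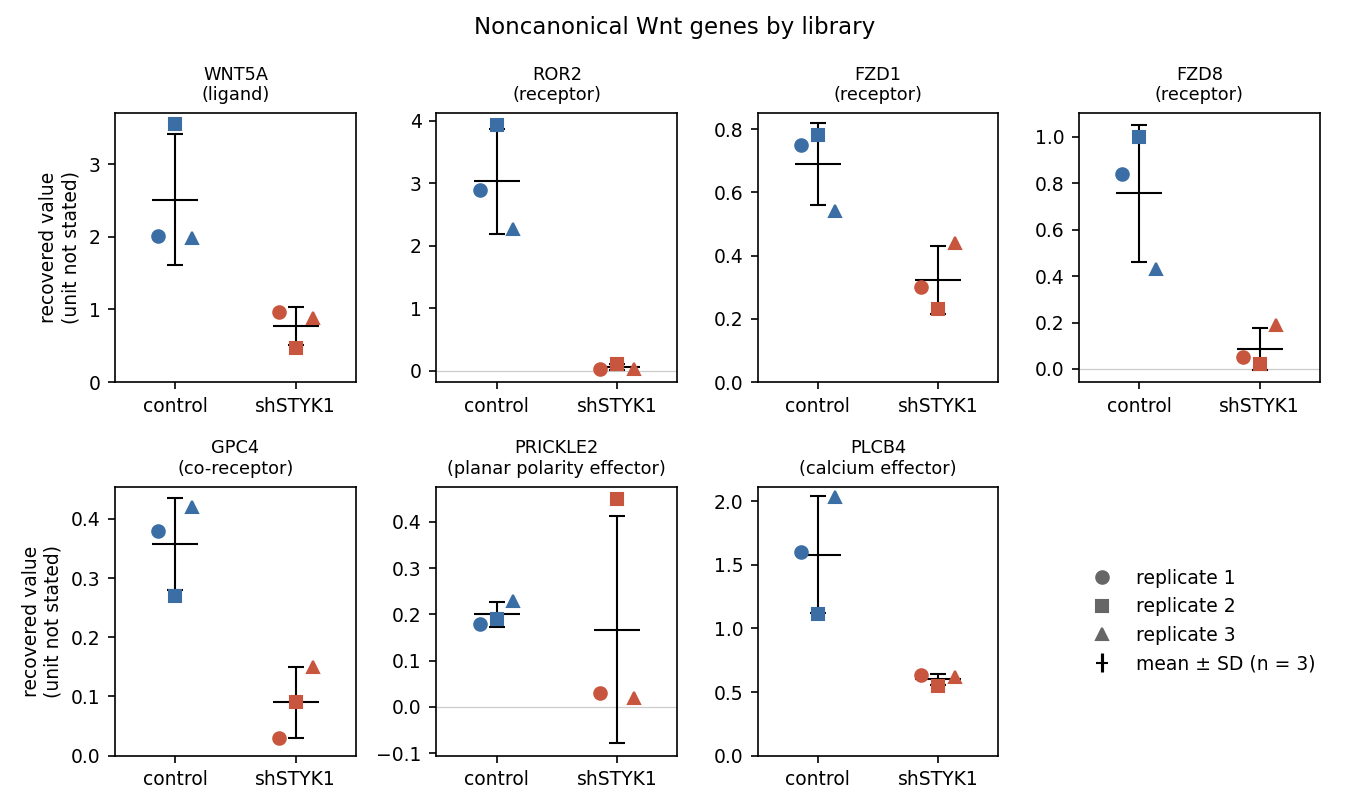
Recovered expression values (vertical axis, unit not stated, each gene on its own scale) of the 7 noncanonical Wnt genes in 3 control (blue) and 3 shSTYK1 (red) libraries. Symbols mark the replicate number, and black bars give the mean ± SD (n = 3). The groups are apart in 6 genes, and in PRICKLE2 the shSTYK1-2 library at 0.45 lies above all control libraries.

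WNT5A (ENSG00000114251) encodes the best studied ligand of the noncanonical branch. On chromosome 3 it spans 55465715 to 55490539 of the minus strand (GRCh38, GENCODE 29), and the antisense gene WNT5A-AS1 overlaps it. Its value was 2.01 in control-1, 3.55 in control-2 and 1.98 in control-3, and 0.96, 0.47 and 0.88 in shSTYK1-1, shSTYK1-2 and shSTYK1-3. The groups did not overlap, with a gap of 1.02 between the lowest control and the highest shSTYK1 library, and control-2 was well above the other control libraries. The mean fell from 2.51 ± 0.898 (SD, n = 3) to 0.77 ± 0.263 (SD, n = 3), a 3.26-fold drop. In limma the log2 fold change was -0.97 (SE 0.20, adjusted p = 0.00303). It was -0.77 without control-2, and -1.59 with a pseudocount of 0.1 in place of 1. RefSeq annotates more than one start for the gene. The 300 bases around the upstream start of these, from 250 before to 50 after it, are shown because WNT5A is the ligand gene of the group (RefSeq, GRCh38.p14, chr3:55487257-55487556, minus strand, written 5′ to 3′). The window lies inside the span given above and not at the 5′ end of the gene at 55490539. Capitals mark a GC box, GGGCGG on either strand.
WNT5A: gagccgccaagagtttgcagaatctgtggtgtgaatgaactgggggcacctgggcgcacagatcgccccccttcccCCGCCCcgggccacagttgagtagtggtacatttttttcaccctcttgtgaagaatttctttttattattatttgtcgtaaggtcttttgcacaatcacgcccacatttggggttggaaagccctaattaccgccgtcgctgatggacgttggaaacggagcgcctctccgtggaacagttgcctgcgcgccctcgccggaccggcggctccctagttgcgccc

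ROR2 (ENSG00000169071) encodes a receptor tyrosine kinase that serves as a co-receptor of WNT5A, and of the 7 genes it had the largest fall. It takes up 91563091 to 91950162 on the minus strand of chromosome 9. ROR2 was at 2.89, 3.93 and 2.27 in the control libraries and at 0.03, 0.11 and 0.03 in the shSTYK1 libraries. Every shSTYK1 library was close to 0, the groups were 2.16 apart, and control-2 was again the highest control. Its mean fell from 3.03 ± 0.839 (SD, n = 3) to 0.0567 ± 0.0462 (SD, n = 3), which left 1.87% of the control mean. The log2 fold change was -1.91 (SE 0.16, adjusted p = 6.95e-05 in limma) and -4.32 with a pseudocount of 0.1. The log2 ratio of the group means was -5.74, a value that rests on readings of 0.03 to 0.11. The window at its RefSeq start (GRCh38.p14, chr9:91950179-91950478, minus strand) is shown as that of the receptor gene with the largest change, with its 5 GC boxes in capitals.
ROR2: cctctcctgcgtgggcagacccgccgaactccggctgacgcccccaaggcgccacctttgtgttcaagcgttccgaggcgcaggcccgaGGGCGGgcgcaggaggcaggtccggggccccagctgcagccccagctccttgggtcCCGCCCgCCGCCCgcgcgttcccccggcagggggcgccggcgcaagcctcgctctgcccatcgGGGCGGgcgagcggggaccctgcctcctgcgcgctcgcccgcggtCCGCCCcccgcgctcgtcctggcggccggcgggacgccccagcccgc

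FZD8 and FZD1 encode Frizzled receptors, seven-pass membrane proteins that bind Wnt ligands through a cysteine-rich extracellular domain and serve both branches of the pathway. Both are single-exon genes, FZD8 (ENSG00000177283) at 35638249 to 35642278 of chromosome 10 (minus strand) and FZD1 (ENSG00000157240) at 91264364 to 91271326 of chromosome 7 (plus strand). FZD8 was at 0.84, 1.00 and 0.43 in control-1 to control-3 and at 0.05, 0.02 and 0.19 in the shSTYK1 libraries. The lowest control reading lay 0.24 above the highest shSTYK1 reading. Its mean dropped 8.73-fold, from 0.757 ± 0.294 to 0.0867 ± 0.0907 (SD, n = 3 each). In limma its log2 fold change was -0.68 (SE 0.15, adjusted p = 0.00389). It was -2.24 with a pseudocount of 0.1 and -0.40 after quantile normalization. FZD8 is shown here because it is the Frizzled gene with the larger fall, in the window chr10:35642247-35642546 (RefSeq, GRCh38.p14, minus strand). Capitals mark 3 GC boxes and a TATAAA that begins 29 bases before the start.
FZD8: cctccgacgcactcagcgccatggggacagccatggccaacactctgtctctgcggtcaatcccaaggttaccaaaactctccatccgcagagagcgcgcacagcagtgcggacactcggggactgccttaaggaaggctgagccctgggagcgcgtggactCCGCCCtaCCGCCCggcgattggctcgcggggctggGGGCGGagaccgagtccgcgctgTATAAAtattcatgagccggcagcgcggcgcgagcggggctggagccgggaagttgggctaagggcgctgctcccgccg

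FZD1 changed least of the receptor genes. It was at 0.75, 0.78 and 0.54 in control cells and at 0.30, 0.23 and 0.44 in shSTYK1 cells, and only 0.10 separated control-3 from shSTYK1-3. The mean fell from 0.69 ± 0.131 to 0.323 ± 0.107 (SD, n = 3 each), a 2.13-fold drop and a log2 fold change of -0.35 (SE 0.11, adjusted p = 0.0195 in limma). This call was lost without control-1 (adjusted p = 0.0536 in limma), without shSTYK1-1 (0.0596), without shSTYK1-2 (0.0625) and with quantile normalization (log2 fold change -0.09, adjusted p = 0.445 in limma). With a pseudocount of 0.1 it was -0.92. FZD1 was the one member with another gene of the table within 1 Mb. CDK14, named here after its values were seen, ends 53774 bases before FZD1 on the same strand. It encodes a cyclin-dependent kinase known to phosphorylate the Wnt co-receptor LRP6. The control readings of CDK14 were 0.18, 0.38 and 0.18 and its shSTYK1 readings 0.02, 0.01 and a listed 0, a log2 fold change of -0.30 (adjusted p = 0.0275 in limma).

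GPC4 (ENSG00000076716) encodes a glypican, a heparan sulfate proteoglycan anchored to the outer face of the plasma membrane, which binds Wnt ligands and shapes their access to receptors. It sits at 133300103 to 133415490 of chromosome X, on the minus strand. Readings of 0.38, 0.27 and 0.42 in the control libraries compared with 0.03, 0.09 and 0.15 in the shSTYK1 libraries. The groups were 0.12 apart, and here control-2, the highest library for the ligand and the receptors, was the lowest of the controls. GPC4 fell 3.96-fold, from 0.357 ± 0.0777 to 0.09 ± 0.06 (SD, n = 3 each), with a log2 fold change of -0.32 (SE 0.10, adjusted p = 0.0198 in limma). The call was lost without shSTYK1-1 (-0.28, adjusted p = 0.0760 in limma) and with quantile normalization (-0.03, adjusted p = 0.780 in limma). With a pseudocount of 0.1 the log2 fold change was -1.30.

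PLCB4 (ENSG00000101333) encodes a β-type phospholipase C that is activated by G proteins and cleaves a membrane lipid into second messengers, one of which opens calcium stores. The gene covers 9068763 to 9481242 on the plus strand of chromosome 20, with 36 exons in its principal transcript. PLCB4 was at 1.60, 1.11 and 2.03 in control cells and at 0.63, 0.55 and 0.62 in shSTYK1 cells. The shSTYK1 readings lay close to each other, whereas the control readings spread widely, with control-3 highest and control-2 lowest. Its mean fell from 1.58 ± 0.460 to 0.60 ± 0.0436 (SD, n = 3 each), a 2.63-fold drop. The log2 fold change was -0.67 (SE 0.15, adjusted p = 0.00359 in limma), and it was -1.23 with a pseudocount of 0.1.

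PRICKLE2 (ENSG00000163637) encodes a cytoplasmic LIM-domain protein of the planar polarity core, the one member of that branch among the 7 genes. It sits at 64092242 to 64445476 of chromosome 3 (minus strand), 8.60 Mb from WNT5A, and several antisense genes overlap it. Control libraries read 0.18, 0.19 and 0.23, a narrow range, and shSTYK1 libraries read 0.03, 0.45 and 0.02. Thus, shSTYK1-1 and shSTYK1-3 were below all controls and shSTYK1-2 was above all of them. The means were 0.20 ± 0.0265 and 0.167 ± 0.245 (SD, n = 3 each), and the log2 fold change was -0.06 (SE 0.15, adjusted p = 0.709 in limma). With a pseudocount of 0.1 it was -0.55 (adjusted p = 0.369 in limma). Without shSTYK1-2 it was -0.23 (adjusted p = 0.0826 in limma), and it was 0.02 without shSTYK1-1, 0.03 without shSTYK1-3 and 0.19 with quantile normalization. The first RefSeq window of PRICKLE2 (GRCh38.p14, chr3:64268124-64268423, minus strand) is shown as well. It lies inside the span given above and not at the 5′ end of the gene at 64445476. It holds none of the motifs searched, and the same is true of the WNT5A window that is not shown.
PRICKLE2: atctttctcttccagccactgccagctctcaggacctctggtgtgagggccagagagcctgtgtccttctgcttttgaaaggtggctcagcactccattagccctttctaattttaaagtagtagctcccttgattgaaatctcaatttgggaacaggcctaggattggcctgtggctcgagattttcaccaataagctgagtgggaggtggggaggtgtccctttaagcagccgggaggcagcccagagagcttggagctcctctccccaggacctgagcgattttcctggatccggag

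RefSeq promoter windows were found for 6 of the 7 genes, 8 windows in all, and none for PLCB4 was in the table of windows used here. The windows of WNT5A, ROR2, FZD1, FZD8 and GPC4 hold between 21 and 42 CG dinucleotides, and the PRICKLE2 windows hold 4 and 7, against a median of 14 over all 35116 windows. Their GC content runs from 56.3% to 79.7% in the former genes and is 53.3% and 49.0% in PRICKLE2, against a median of 58.7%. GC boxes (GGGCGG, both strands) occur in 1 of the WNT5A windows and in those of ROR2, FZD1, FZD8 and GPC4, and 45.0% of all windows hold one. The letters of the TCF/LEF motif bound by the nuclear factors of the β-catenin branch (CTTTG followed by any pair of A or T, both strands) occur in 0 of the 8 windows and in 13.8% of all windows. The AP-1 motif TGACTCA, searched on both strands, was also found in 0 of the 8 windows, against 4.95% of all windows. TATAAA on either strand occurs in the FZD8 window and in 11.5% of all windows. Such matches describe letters in these windows only. Which start PANC-1 cells use was not measured.

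Whether ligand, receptors, co-receptor and effectors moved together was asked in 2 ways, between the groups and from library to library. Between the groups, WNT5A, ROR2, FZD1, FZD8, GPC4 and PLCB4 each had all 3 shSTYK1 libraries below all 3 control libraries. In 48.2% of the 994 genes the groups lay apart in this direction, in 45.5% in the other, and in 93.7% in either. Taken alone, each of the 6 genes had p = 0.10 in a two-sided exact permutation test, the smallest p that groups of 3 allow. Only WNT5A, ROR2 and PLCB4 reached a value of 1 in at least 3 libraries, and in all of them the 3 libraries were the controls. With genes under that level left out, these 3 were called lower, as were 44.5% of the genes then fitted, but they were kept only through the group where they are high, so this adds no support. How far the changes of the 7 genes differ from one another was not tested.

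**Figure D2:**
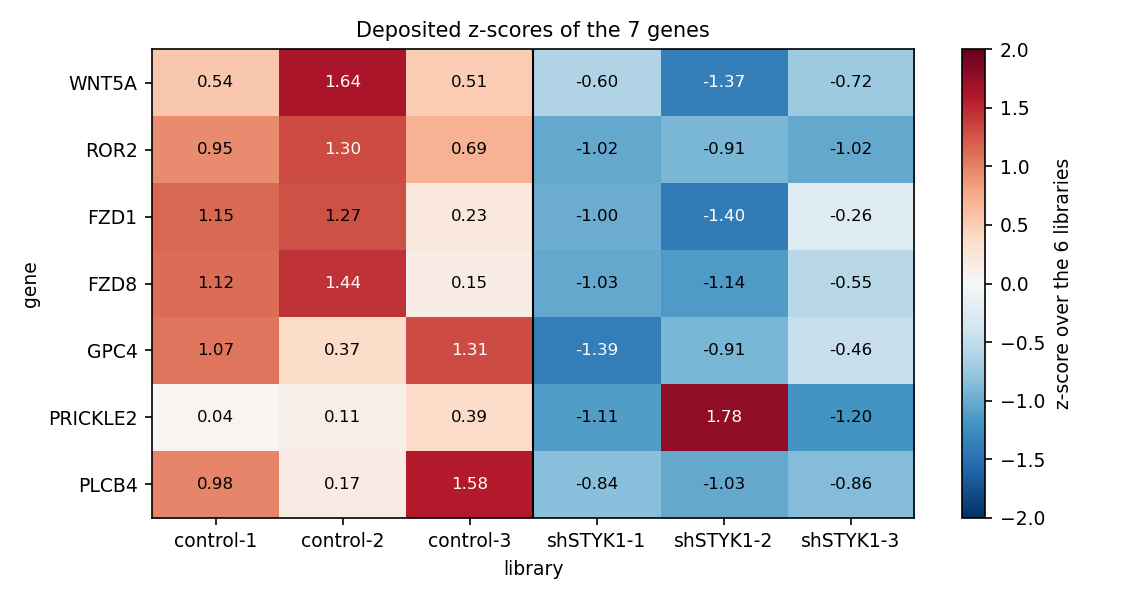
Deposited z-scores of the 7 genes (rows) in the 6 libraries (columns), where red is above and blue below the gene's own mean over the libraries and the black line separates the groups. WNT5A, ROR2, FZD1 and FZD8 are highest in control-2, GPC4 and PLCB4 in control-3, and PRICKLE2 in shSTYK1-2 (1.78).

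Within the groups, the 7 genes split. Control-2 was the highest control library in WNT5A, ROR2, FZD1 and FZD8 and the lowest in GPC4 and PLCB4. Control-3, on the other hand, was the highest control in GPC4 and PLCB4 and the lowest in the ligand and receptor genes. On the log2(value + 1) scale, control-2 stood 0.40 above the control mean in WNT5A, 0.31 above it in ROR2, 0.20 above it in FZD8 and 0.08 above it in FZD1. It stood at -0.09 in GPC4 and at -0.27 in PLCB4. Among all 460 genes called lower, control-2 was the highest control in 48.5% and the lowest in 26.1%, so its place at the top of the ligand and receptor genes is shared by many lower genes. The median deviation of control-2 over these 460 genes was 0.06. In shSTYK1 cells the lowest library was shSTYK1-2 for WNT5A, FZD1, FZD8 and PLCB4, while ROR2 and PRICKLE2 were highest there.

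The same split showed when each library's deviation from its group mean was compared between genes. This uses the same libraries and values in which the split was seen, so it is no separate support for it. The deviations were small in GPC4 (-0.09 to 0.08) and FZD1 (-0.13 to 0.12). Over the 6 libraries, Pearson's r of these deviations was between 0.49 and 0.93 in all 6 pairs among WNT5A, ROR2, FZD1 and FZD8, with FZD1 and FZD8 the closest pair. It was 0.69 between GPC4 and PLCB4. In all 8 pairs of a ligand or receptor gene with GPC4 or PLCB4 it was below 0, closest to 0 for FZD1 with GPC4 (-0.09) and lowest for ROR2 with PLCB4. PRICKLE2 was between -0.63 and 0.13 with the others. These correlations are given as a description without a p-value, since they rest on 6 deviations with 2 means removed and all genes share the same libraries. Without control-2, 5 of the 6 pairs stayed above 0 and 5 of the 8 pairs below 0, and without control-3 these counts were also 5 and 5. Leaving out any one of the other 4 libraries kept all 6 and all 8.

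**Figure D3:**
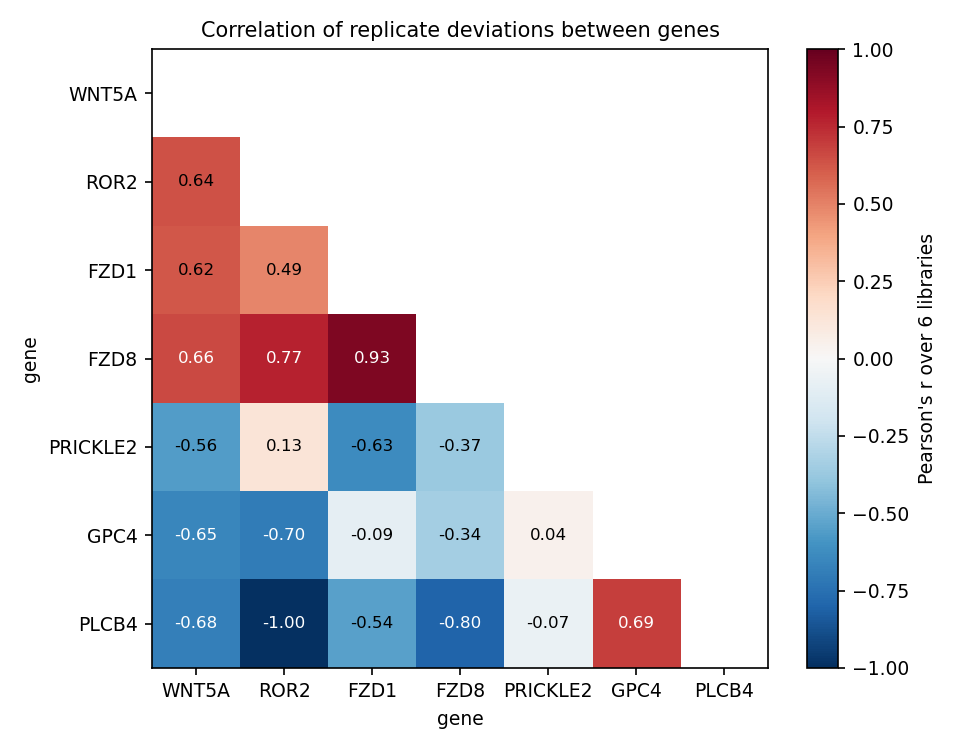
Pearson's r, over the 6 libraries, of the deviations of log2(value + 1) from the group mean for each pair of the 7 genes (both axes list genes; the scale runs from blue, -1, to red, 1). WNT5A, ROR2, FZD1 and FZD8 form a positive block (0.49 to 0.93), and their cells with GPC4 and PLCB4 are all negative.

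Few other genes of the β-catenin-independent arm could be read. Of 88 further symbols of this arm, among them other Frizzled, glypican, syndecan, Vangl, Dishevelled, G protein and calcium-release genes, 6 have a row in the table, of which 3 were called lower and 3 higher. These shares are near those of the whole table (46.3% lower and 45.8% higher) and are no result about the arm. The median log2 fold change of the 6 genes was -0.20. These counts and the median include SMO, which is of the Frizzled class but transduces Hedgehog signals. They are therefore not of Wnt pathway genes alone. On the lower side, the glypican gene GPC6, a relative of GPC4, was at 1.11, 1.37 and 1.32 in control libraries and was listed at 0.02, 0 and 0 in shSTYK1 libraries (log2 fold change -1.17, adjusted p = 6.71e-05 in limma). GNAO1, which encodes the α subunit of the Go protein, fell from 15.3 ± 3.37 to 5.66 ± 0.247 (SD, n = 3 each; log2 fold change -1.27). ITPR1, the receptor through which the phospholipase C product releases calcium, fell from 9.01 ± 0.274 to 5.09 ± 0.531 (log2 fold change -0.72).

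On the higher side, SDC4, a syndecan that carries heparan sulfate like the glypicans, rose from 58.1 ± 1.24 to 120.0 ± 4.21 (SD, n = 3 each), a log2 fold change of 1.04 (SE 0.09). ANKRD6, the human Diversin gene of the planar polarity branch, rose from 0.44 ± 0.320 to 1.21 ± 0.263 (log2 fold change 0.64). SMO, which belongs to the Frizzled class of receptors but transduces Hedgehog signals, rose from 0.143 ± 0.0252 to 0.42 ± 0.0436 (log2 fold change 0.31). With median-of-ratios size factors, SDC4 was at 0.64 (adjusted p = 0.00126 in limma) and SMO at 0.22 (adjusted p = 0.0675 in limma), so the call for SMO was lost. ANKRD6 was at 0.47 with these factors. The falls grew with them, GPC6 to -1.25, GNAO1 to -1.62 and ITPR1 to -1.07. Of the glypican and syndecan genes named here, GPC4 and GPC6 were lower and SDC4 was higher, although GPC4 was at -0.03 with quantile normalization. Of the planar polarity genes, PRICKLE2 was not called in the fit used here and ANKRD6 was higher.

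**Figure D4:**
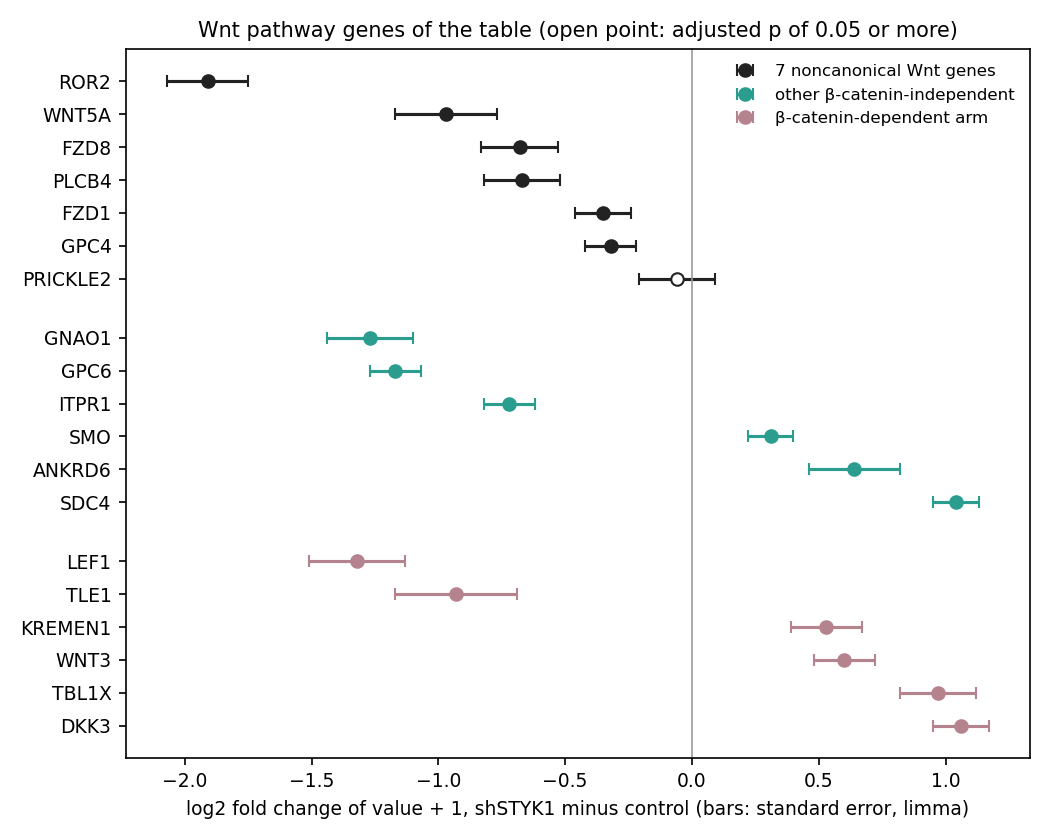
Log2 fold change of value + 1, shSTYK1 minus control (horizontal axis), for the 7 noncanonical Wnt genes (black), 6 other β-catenin-independent genes (green) and 6 genes of the β-catenin-dependent arm (pink), with the standard error from limma as bars. The green genes include SMO, which transduces Hedgehog signals. Filled points passed an adjusted p of 0.05, and the open point, PRICKLE2 at -0.06, did not. The black points lie below 0, and the other groups lie on both sides.

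The β-catenin-dependent arm was the nearest comparison. Of its 101 symbols, 6 have a row, with 2 called lower and 4 higher (46.3% and 45.8% of all genes fitted) and a median log2 fold change of 0.56. LEF1, a DNA-binding partner of β-catenin, read 1.07, 2.53 and 1.56 in control cells and 0.09, a listed 0 and 0.11 after knockdown (log2 fold change -1.32). TLE1, a co-repressor of these DNA-binding partners, fell from 17.0 ± 3.64 to 8.60 ± 2.89 (SD, n = 3 each; log2 fold change -0.93). DKK3, a member of the Dickkopf family, rose from 56.4 ± 6.24 to 119.0 ± 1.24 (log2 fold change 1.06). The ligand gene WNT3 read 1.38, 1.94 and 1.41 in control cells, against 2.62, 3.09 and 2.94 after knockdown, the opposite direction to the ligand gene WNT5A. TBL1X and KREMEN1 were higher too, with log2 fold changes of 0.97 and 0.53. Median-of-ratios size factors took DKK3 to 0.66, TBL1X to 0.61, WNT3 to 0.32 and KREMEN1 to 0.28, and the call for KREMEN1 was lost (adjusted p = 0.103 in limma). They made the falls larger, with LEF1 at -1.41 and TLE1 at -1.30. The difference between the 2 arms and the 7 genes was not tested, because the 7 genes were chosen with their values known.

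By their z-scores over the 6 libraries, the genes of the table with a mean value of at least 1 that ran most closely with the 7 Wnt genes were GABBR2, MEG3, NEU1, COL7A1 and CDCA8. Each had a mean Pearson's r of 0.82 with the 7 genes, and each was lower in shSTYK1 cells with no overlap between the groups. GABBR2, a subunit of the receptor for the transmitter GABA, read 2.51, 2.83 and 2.51 in control cells, against 0.49, 0.65 and 0.65 after knockdown. NEU1, a lysosomal sialidase, fell from 14.3 ± 1.95 to 2.24 ± 0.322 (SD, n = 3 each). COL7A1, the collagen of anchoring fibrils, fell from 31.8 ± 5.50 to 6.50 ± 0.664. The long noncoding RNA gene MEG3 and the mitotic gene CDCA8 had log2 fold changes of -1.21 and -1.07. The genes of the table were selected for the group difference, so such an r is a description only. Among the 7 themselves, the closest pair by z-score was FZD1 with FZD8 (r = 0.98), and PRICKLE2 had no r above 0.20 with another member.

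Markers of cell identity could be read only in part. Of 12 markers of pancreatic ductal epithelium, CDH1 alone has a row. It encodes the adhesion protein E-cadherin and rose from 0.217 ± 0.101 to 0.897 ± 0.0451 (SD, n = 3 each; log2 fold change 0.64). Of 12 fibroblast markers, COL1A1 alone has a row. It was between 22.24 and 42.24 in control libraries and between 2.94 and 3.73 in shSTYK1 libraries (log2 fold change -2.83). Like WNT5A, ROR2, FZD1 and FZD8, it was highest in control-2. The part that these markers have in the changes of the Wnt genes was not tested.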

How the data were processed

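RNA sequencing covered 3 libraries of control and 3 of shSTYK1 PANC-1 cells. The submitters' processing notes name RSEM, DESeq2 and GRCh38, with no role or order. The authors deposited 1 score per gene and library, made by centring and scaling each gene over the libraries (a z-score), for genes they had called changed between these groups at a p threshold of 0.05. The expression unit, and whether that p was adjusted, are not given in the sources used here. Values with 2 decimals were recovered in Python 3.11.15 (numba 0.67.0) as the smallest whole-number solution for which log(value + 1) gives the scores. They gave back the scores of 994 of 995 genes within 5.00e-12. Tested on simulated data, the recovery was exact for 97 of 100. A common factor of value + 1 cannot be seen. It does not change a fold change on the scale of value + 1, but it would change the values, their ratios and the percentages left. Among genes taken at their smallest solution, the lowest value was exactly 0 in 112 and 0.01 in 12. Groups came from the labels. The design assumed values or z-scores, and limma 3.58.1 (R 4.3.3, lmFit and eBayes, Benjamini-Hochberg adjustment) was run on log2(value + 1) without a filter on low values. Tested on simulated data for this comparison with 994 genes, it called 183 of 200 genes changed by a log2 value of 1 and 6 of 794 unchanged genes. In the real data 92.1% of the genes were called, a far larger share than was changed in the simulation. The simulated rates therefore need not hold for the real fit. The text names the 7 members, every listed pathway or marker gene in the table, and the 5 genes most like the members. Members and lists were chosen with earlier results of these data known. Symbols were matched for 923 of 995 genes, and 965 were placed with GENCODE 29. Plots used matplotlib 3.10.9.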

Additional observations from a re-analysis of the deposited data

How the results depend on the processing

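Calls for WNT5A, ROR2, FZD8 and PLCB4 held under every alternative in which they could be fitted. FZD1 lost its call in 4 of 13 alternatives and GPC4 in 2 of 13, as given above. PRICKLE2 changed sign with quantile normalization (0.19), without shSTYK1-1 (0.02) and without shSTYK1-3 (0.03), was lowest among the libraries left out in turn without shSTYK1-2 (-0.23), and was called in none. A filter of at least 1 in 3 libraries left 3 of the 7 genes, which were called lower (background 44.5% of 740 genes) but had passed only through their control libraries, so this is no test of them. It left 4 genes of the other β-catenin-independent list, 3 lower and 1 higher. A filter of at least 5 left none of the 7, with 130 lower and 194 higher genes of 327. It left 2 lower and 1 higher gene of the other β-catenin-independent list, and 1 lower and 2 higher of the β-catenin-dependent list. The fewer genes follow from the filters. Quantile normalization moved the median log2 fold change of all genes from -0.10 to 0.05, and single genes moved by other amounts and in both directions (FZD1 from -0.35 to -0.09, SDC4 from 1.04 to 0.69). Leaving out each library gave 427 to 451 lower and 429 to 447 higher genes, with 4 to 6 of the 7 Wnt genes called lower and 8 to 11 of 21 pairs above 0. Quantile normalization also left 4 of the 7 called lower. The median-of-ratios size factors, computed on the selected genes only, were 0.856 to 1.03 in control and 1.18 to 1.23 in shSTYK1 libraries. In them, a group difference of these genes and one of library scale cannot be told apart. With these factors all 7 Wnt genes lay further below 0. WNT5A was at -1.17, ROR2 at -2.02, FZD1 at -0.47 and FZD8 at -0.75. GPC4 was at -0.38, PLCB4 at -0.86 and PRICKLE2 at -0.11.

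Same-numbered libraries did not pair: r of their deviations over 994 genes was -0.20, 0.19 and 0.06, and only control-2 and shSTYK1-2 were closest to their own number. With the replicate number as a block, 450 genes were lower and 461 higher, and 6 of the 7 Wnt genes were still called lower. The lack of depth and of the unit limits what low readings can show.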
